A study of Mus musculus with 12 samples.

Results

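The genes of MHC class II presentation were read from bulk liver RNA of mice given concanavalin A (Con A). They were taken as the rows of the expression table whose gene name was 1 of 7 names, H2-Aa, H2-Ab1, H2-Eb1, H2-DMa, H2-DMb1, Cd74 and Ciita. Rows were found for 6 of these among 11289 genes, and Ciita was not analysed here. Con A is a plant lectin that activates T cells and causes acute hepatitis when injected into mice. The samples were whole livers of C57BL/6J mice in 3 groups of 4. The first is called control, and those given Con A are called Con A + PBS or, where stem cells were infused, Con A + hWJ-MSCs. Mice of both Con A groups received 15 mg/kg Con A through the tail vein and, 30 min later, an intravenous infusion in 200 μL PBS, either PBS alone or 2000000 mesenchymal stem cells from human Wharton's jelly, the gelatinous tissue of the umbilical cord. Livers were taken 24 h after Con A. The labels give an age of 8 to 10 weeks, whereas the study's methods give younger, male mice and fewer cells, and what the control mice received is not given in the sources used here. The human cells may leave RNA of their own in the third group, and reads were assigned to the mouse genome only.

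MHC class II molecules are pairs of an alpha and a beta chain that show peptides to CD4+ T cells. H2-Aa and H2-Ab1 encode the alpha and beta chains of the I-A molecule, and H2-Eb1 encodes the beta chain of I-E, whose alpha chain is not made in C57BL/6 mice. Cd74 is the invariant chain that holds the peptide groove closed on the way to the endosome, and H2-DMa and H2-DMb1 form H2-DM, which exchanges the last fragment of Cd74 for a peptide. In the liver these genes are mainly expressed by dendritic cells, B cells, Kupffer cells and other macrophages, with lower expression on sinusoidal endothelium. Their promoters share an X box and a Y box, bound by the RFX and NF-Y factors, and are switched on by Ciita, which interferon-γ induces in part through Irf1.

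The upstream sequences below were searched for letters of these elements, in the members for which a window could be matched to the deposited start. RefSeq windows (GRCm38.p6) had an entry for H2-Aa, H2-Eb1, H2-DMa and H2-DMb1, while H2-Ab1, Cd74 and Ciita were without one. The RefSeq starts of H2-Aa and H2-Eb1 were 4 and 10 bases from the transcript starts in the table. Those of H2-DMa and H2-DMb1 were at least 119 bases away, so their windows are not shown. Each line holds the 130 bases before the RefSeq start, 5′ to 3′ on the strand of the gene. Capitals mark the Y box letters CTGATTGG or their core GATTGG, and the X box part AACNGATG. The H2-Aa bases were chr17:34287824-34287953 on the minus strand and the H2-Eb1 bases chr17:34305737-34305866 on the plus strand.
H2-Aa: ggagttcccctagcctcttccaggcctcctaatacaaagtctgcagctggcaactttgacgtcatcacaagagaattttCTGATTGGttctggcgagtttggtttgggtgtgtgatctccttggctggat
H2-Eb1: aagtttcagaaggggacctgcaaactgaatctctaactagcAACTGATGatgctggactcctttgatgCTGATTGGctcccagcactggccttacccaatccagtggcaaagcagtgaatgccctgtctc
On the strand of the gene the Y box core began 49 bases before the RefSeq start in H2-Aa and 60 in H2-Eb1, and both held the 8 letters of the Y box. H2-Eb1 also held the core on the opposite strand, 35 bases before the start and not in capitals. The X box part began 89 bases before the start in H2-Eb1, and these letters were not in the H2-Aa window. Read on both strands, the 8 letters of the Y box were in 4.10% of 32851 RefSeq windows of 300 bases, the core inside it in 16.1% and the X box part in 2.32%. The X box part followed 20 to 40 bases on by the Y box core, a spacing chosen after the sequences were seen, was in 8 windows, or 0.0244%. The letters of an interferon-γ activated site, TTCNNNGAA, were in 8.30% of windows, and those of part of an interferon response element, GAAANNGAA, in 8.56%. Neither was in the window of H2-Aa or H2-Eb1.

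Values in the table were scores, which are normalized, have no stated unit and behave like ranks scaled to a shared distribution. The median was 352 in each of the 12 mice and the largest score was 341028, so a score tells how a gene stood among the other genes of that liver. The depth of each library is unknown. The second highest score of every gene was at least 64. A gene below 64 in every control mouse was therefore in the table only through mice given Con A. The rise of such a gene is not independent of this floor. A change was called when the Benjamini-Hochberg adjusted p of limma was below 0.05 and the fold change above 1.5. A log2 fold change here is a difference in log2(score + 1), printed with its standard error, and low genes are understated on that scale. Of the Kupffer, dendritic and B cell marker lists, 11 of 12, 3 of 13 and 3 of 11 genes were in the table. Markers that define the latter 2 cell types, such as Itgax, Flt3, Cd79a and Ms4a1, were among those not analysed here. Alb, the hepatocyte gene for albumin, stood at the largest score in every mouse.

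After Con A + PBS, 2 class II genes were called lower and 0 were called higher. H2-Aa and H2-Eb1 fell to 0.507 and 0.533 times their control level, and the other 4 members were not called. Thus 2 of 6 members were called lower, against 19.2% of all genes, and 0 of 6 were called higher, against 19.5%. At an unadjusted limma p below 0.05, 3 of 6 were lower and 0 higher. The share of all genes at this unadjusted rule is not given here or below, so counts at it have no background. The median log2 fold change of the members was -0.55, with all 6 below 0, and that of all genes was 0.045. Without control replicate 2, H2-DMa was at 0.03 and the other 5 stayed below 0, from -0.80 for H2-Aa to -0.07 for Cd74. H2-Ab1 was then at -0.14, and all 6 were smaller in size than with every mouse kept.

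H2-Aa, the I-A alpha chain (chr17:34282744-34287827, minus strand), had scores of 652, 988, 472 and 713 in control replicates 1 to 4. In Con A + PBS replicates 1 to 4 it had 298, 460, 248 and 420. Every Con A + PBS mouse was below every control mouse, although the highest of the former and the lowest of the latter were only 12 units apart. The log2 fold change was -0.98 ± 0.34 (SE, n = 4 per group, limma adjusted p = 0.0266), a ratio of 0.507 with a 95% interval from 0.305 to 0.845.

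H2-Eb1, the I-E beta chain (chr17:34305877-34316199, plus strand), had 458, 800, 372 and 577 in the control mice and 266, 325, 210 and 348 in the Con A + PBS mice. The groups again did not overlap. Its log2 fold change was -0.91 ± 0.32 (SE, n = 4 per group, limma adjusted p = 0.0288), a ratio of 0.533 with a 95% interval from 0.330 to 0.863. In the exact permutation test H2-Aa and H2-Eb1 each gave a two-sided p of 0.029, the smallest that 4 against 4 allows. Groups without overlap in this direction were seen in 2 of 6 members and in 23.4% of all genes.

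Both calls rested on each of several mice. Leaving out control replicate 2 moved the log2 fold change of H2-Aa to -0.80 and its limma adjusted p to 0.0795. The adjusted p of H2-Aa was 0.0546 without control replicate 4, 0.0652 without Con A + PBS replicate 1 and 0.0768 without Con A + PBS replicate 3. The same 4 omissions gave H2-Eb1 adjusted p values of 0.0883, 0.0630, 0.0612 and 0.0810. Both genes stayed lower in all 12 omissions, with log2 fold changes from -1.16 to -0.80 for H2-Aa and from -1.08 to -0.71 for H2-Eb1.

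H2-Ab1, the beta chain that pairs with H2-Aa (chr17:34263209-34269418, plus strand), had 520, 1026, 358 and 578 in control mice and 412, 462, 354 and 514 after Con A + PBS. The groups overlapped, and control replicate 2 stood well above the rest. Its log2 fold change was -0.42 ± 0.31 (SE, n = 4 per group, limma adjusted p = 0.276), with a 95% interval from -1.10 to 0.26. It was -0.14 (limma adjusted p = 0.697) without control replicate 2, and ran from -0.65 to -0.14 with 1 mouse left out.

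Cd74, the invariant chain, lies outside the MHC on chr18:60803856-60812646, plus strand. Its scores were 1261, 2014, 1034 and 1592 in control mice and 1108, 1498, 842 and 1569 in Con A + PBS mice. These ranges overlapped over most of their length. The difference in log2 score was -0.23 ± 0.29 (SE, n = 4 per group, limma adjusted p = 0.521), with a 95% interval from -0.87 to 0.41, which overlaps the H2-Aa interval of -1.72 to -0.24.

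H2-DMa, the alpha chain of the peptide exchanger (chr17:34135182-34139101, plus strand), had 80, 130, 54 and 104 in control mice and 86, 77, 66 and 86 after Con A + PBS. The Con A + PBS mice all lay inside the control range. On the log2 scale the difference was -0.16 ± 0.28 (SE, n = 4 per group, limma adjusted p = 0.650).

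H2-DMb1, its beta chain (chr17:34153072-34160230, plus strand), had 62, 124, 82 and 62 in control mice and 32, 54, 50 and 65 after Con A + PBS. A single Con A + PBS mouse, replicate 4, reached into the control range. The log2 fold change was -0.69 ± 0.30 (SE, n = 4 per group, limma adjusted p = 0.0680), which missed the threshold. It was -0.47 (adjusted p = 0.197) without control replicate 2, -0.49 (adjusted p = 0.193) without Con A + PBS replicate 1 and -0.82 (adjusted p = 0.0453) without Con A + PBS replicate 4. The near-identical H2-DMb2 was not analysed here, and how reads shared by the pair were divided is not known, so the H2-DMb1 scores are uncertain.

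**Figure D1:**
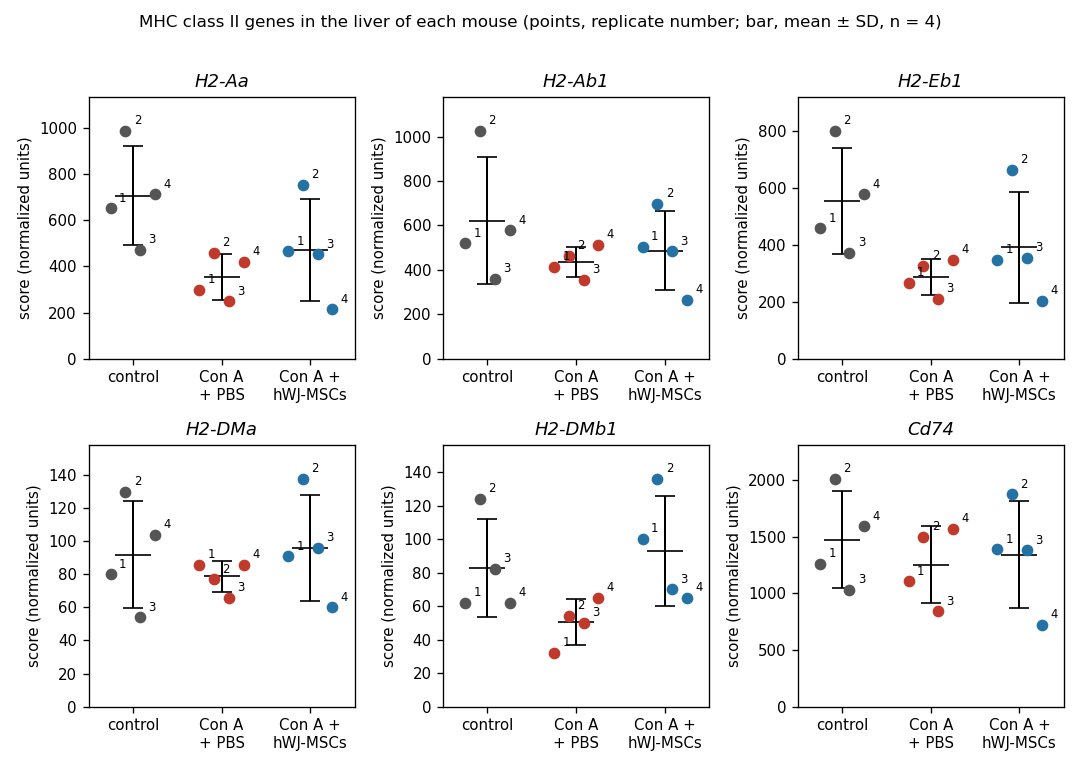
Scores (normalized units, vertical axes starting at 0) of the 6 class II genes in each mouse, by group on the horizontal axis. Points are mice with their replicate numbers and black bars are the mean ± SD (n = 4). H2-Aa and H2-Eb1 are the panels in which no Con A + PBS mouse reaches the control mice, and control replicate 2 and Con A + hWJ-MSCs replicate 2 are the highest of their groups in all 6 panels.

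Ratios between members were compared in each mouse over 15 pairs, of which 5 had groups without overlap after Con A + PBS. With 4 against 4 at least 9 pairs would have to reach the smallest exact p for any to pass after adjustment, so this test could not call the 5. They were H2-Aa and H2-Eb1 against Cd74 and against H2-DMa, all lower, and H2-Ab1 against H2-Eb1, higher. Values by mouse are given for the ratios to Cd74 and for the I-A pair, chosen after all ratios were seen. The ratio of H2-Aa to Cd74 scores was 0.517, 0.491, 0.456 and 0.448 in control mice and 0.269, 0.307, 0.295 and 0.268 after Con A + PBS. The ratio of H2-Eb1 to Cd74 was 0.363, 0.397, 0.360 and 0.362 in control mice and 0.240, 0.217, 0.249 and 0.222 after Con A + PBS. Neither ratio overlapped between groups. Each of the 5 pairs gave an exact permutation p of 0.029, two-sided and the smallest possible, and 0.0857 after Benjamini-Hochberg adjustment over the 15 pairs of members. The other 3 differed in log2 ratio by -0.821 for H2-Aa to H2-DMa, -0.749 for H2-Eb1 to H2-DMa and 0.49 for H2-Ab1 to H2-Eb1. The ratio of H2-Ab1 to Cd74 was 0.412, 0.509, 0.346 and 0.363 in control mice and 0.372, 0.308, 0.420 and 0.328 after Con A + PBS, with the groups overlapping. H2-Aa to H2-Ab1, the 2 chains of 1 molecule, stood at 1.25, 0.963, 1.32 and 1.23 in control mice. After Con A + PBS this ratio was 0.723, 0.996, 0.701 and 0.817, with replicate 2 overlapping the control mice (exact permutation p = 0.0571, 0.143 after the same adjustment).

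Levels between members were compared as score per kb of the transcript that the table lists, on the assumption that the scores had not already been divided by length. In control livers Cd74 stood highest at 1097 ± 317 score per kb (SD, n = 4). H2-Aa followed at 626 ± 190, H2-Ab1 at 512 ± 236 and H2-Eb1 at 471 ± 159 score per kb (SD, n = 4). The ranges of these neighbors overlapped. H2-DMb1 at 58.8 ± 20.8 and H2-DMa at 55.5 ± 19.6 score per kb (SD, n = 4) overlapped with each other and lay far below the chains they serve. After Con A + PBS the levels were 933 ± 254 for Cd74, 359 ± 56.5 for H2-Ab1, 316 ± 88.6 for H2-Aa and 245 ± 53.0 for H2-Eb1 score per kb (SD, n = 4). H2-Ab1 then stood above H2-Aa, the reverse of the control order, though again with overlapping ranges.

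The stem cell infusion was compared with PBS among mice that had received Con A, to see whether class II expression differed. None of the 6 members was called, against 4.20% of all genes called higher and 4.38% called lower by limma. At an unadjusted p below 0.05, for which no share of all genes is given, 1 of 6 passed. All 6 log2 fold changes were above 0, with a median of 0.27. Without Con A + hWJ-MSCs replicate 2, H2-Ab1 was at -0.11 and Cd74 at -0.13, and H2-Aa and H2-Eb1 were at 0.04 and 0.05. The size of the median thus depended on this mouse. The same Con A + PBS mice serve this comparison and the previous one, so their opposite signs are not independent.

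The gene that passed the unadjusted p was H2-DMb1, with scores of 100, 136, 70 and 65 in Con A + hWJ-MSCs replicates 1 to 4, against the 32 to 65 of the Con A + PBS mice. The groups met at 65. It was 0.85 ± 0.30 higher on the log2 scale with hWJ-MSCs (SE, n = 4 per group, limma adjusted p = 0.0715), with a 95% interval from 0.20 to 1.5. Leaving out 1 mouse at a time moved the adjusted p between 0.0539 and 0.193.

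H2-Aa had 466, 754, 452 and 214 in the Con A + hWJ-MSCs mice. Replicate 2 was in the control range and replicate 4 was below every Con A + PBS mouse. The log2 fold change against Con A + PBS was 0.31 ± 0.34 (SE, n = 4 per group, limma adjusted p = 0.539), with a 95% interval from -0.42 to 1.05. It was 0.04 without Con A + hWJ-MSCs replicate 2 and 0.65 without replicate 4, so these mice set its size.

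H2-Eb1 had 346, 662, 354 and 202 in the same mice, in the same order as H2-Aa at both ends. Its log2 fold change against Con A + PBS was 0.34 ± 0.32 (SE, n = 4 per group, limma adjusted p = 0.469). It was 0.05 without Con A + hWJ-MSCs replicate 2 and 0.62 without replicate 4. H2-Ab1 had 504, 698, 483 and 264, with a log2 fold change of 0.09 ± 0.31 (adjusted p = 0.860). Both chains spread over a wider range than in the Con A + PBS mice.

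Cd74 had 1391, 1875, 1382 and 722 in the Con A + hWJ-MSCs mice, with a log2 fold change of 0.06 ± 0.29 (limma adjusted p = 0.904) against Con A + PBS. H2-DMa had 91, 138, 96 and 60, with a log2 fold change of 0.23 ± 0.28 (adjusted p = 0.578). For H2-Aa, H2-Ab1, H2-Eb1 and Cd74 the group mean lay between those of the other groups. For H2-DMa and H2-DMb1 it was the highest of the 3, at 96.2 ± 32.1 and 92.8 ± 32.7 (SD, n = 4), by less than the spread between mice.

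Against control mice, 0 of 6 members were called in the Con A + hWJ-MSCs mice, with 13.1% of all genes called lower and 13.6% higher, and 0 of 6 passed an unadjusted limma p below 0.05. The log2 fold change was -0.67 ± 0.34 for H2-Aa (limma adjusted p = 0.136) and -0.56 ± 0.32 for H2-Eb1 (adjusted p = 0.178). Without Con A + hWJ-MSCs replicate 2, both were called lower, at -0.94 for H2-Aa (adjusted p = 0.0351) and -0.86 for H2-Eb1 (adjusted p = 0.0281). The other 4 members lay between -0.32 and 0.16. This comparison shares its control mice with the first and its Con A + hWJ-MSCs mice with the second.

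Within groups the members moved together from mouse to mouse. Control replicate 2 was the highest of its group in 6 of 6 members, and Con A + hWJ-MSCs replicate 2 likewise in 6 of 6. Con A + hWJ-MSCs replicate 4 was the lowest of its group in 6 of 6, with a median log2 deviation of -0.81 from the group mean. After group means were subtracted, the 15 pairs of members had Pearson correlations from 0.48 to 0.98 over the 12 mice, with a median of 0.93. These are a description, since the points share libraries and normalization, and the lowest values belonged to pairs with H2-DMb1.

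**Figure D2:**
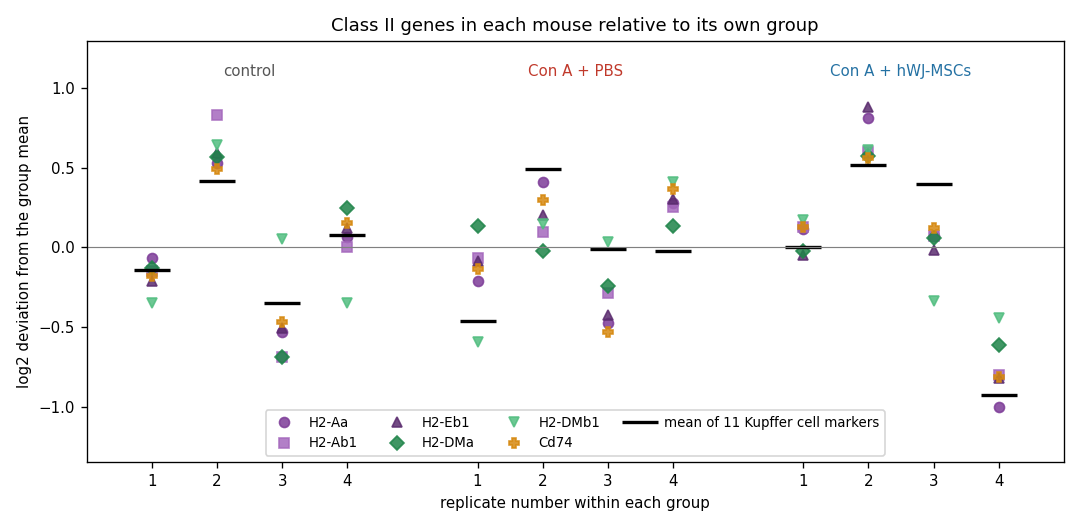
Log2 deviation of each class II gene from the mean of its own group (vertical axis), for each mouse by replicate number (horizontal axis). Colored symbols are the 6 genes and black dashes the mean deviation of 11 Kupffer cell markers. Control replicate 2 and Con A + hWJ-MSCs replicate 2 lie above 0 and Con A + hWJ-MSCs replicate 4 below 0 in all 6 genes and in the Kupffer cell mean.

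The genes whose pattern was most like that of H2-Aa, H2-Ab1, H2-Eb1 and Cd74 together, by Pearson correlation over the 12 mice, were Marco (0.88), Hdac7 (0.87), Tyw1 (0.87), Fam129b (0.86) and Entpd1 (0.86). Marco is a scavenger receptor of macrophages, Hdac7 a histone deacetylase, Tyw1 a tRNA-modifying enzyme and Entpd1 the ectonucleotidase CD39. Marco had 112, 426, 122 and 226 in control mice, 50, 116, 64 and 60 after Con A + PBS, and 86, 204, 136 and 54 after Con A + hWJ-MSCs. Replicate 2 was thus the highest in each group. After group means were subtracted the most alike genes were Serpinb6a (0.93), Wipf1 (0.92), Fam129b (0.92), Entpd1 (0.91) and Fam129a (0.91). Between groups these genes went different ways. After Con A + PBS Serpinb6a and Wipf1 were at log2 fold changes of 0.38 (limma adjusted p = 0.0155) and 0.53 (adjusted p = 0.00384), below the minimum fold change. Fam129b was at -0.15 (adjusted p = 0.671) and Entpd1 at -0.67 (adjusted p = 0.0619), while Fam129a was called lower at -1.0 (adjusted p = 0.0236).

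In whole liver, fewer cells of a type and less RNA per cell cannot be told apart, and the markers of class II expressing cells also differed between groups. Marker counts here and below stand beside 19.2% of all genes called lower and 19.5% called higher after Con A + PBS. Between hWJ-MSCs and PBS these shares were 4.38% and 4.20%. All 11 Kupffer cell markers in the table fell after Con A + PBS, with Clec4f, a Kupffer cell lectin, at a log2 fold change of -4.90 ± 0.37 (limma adjusted p = 9.09e-07) and Vsig4, a complement receptor, at -4.54 ± 0.44 (adjusted p = 5.26e-06). Their summed score ranged from 6034 to 9571 in control mice, 879 to 1704 in Con A + PBS mice and 741 to 2212 in Con A + hWJ-MSCs mice. Within groups the mean deviation of these markers had a Pearson correlation of 0.84 over the 12 mice with the mean of H2-Aa, H2-Ab1, H2-Eb1 and Cd74, given as a description. The same correlation was 0.65 for the hepatocyte list, 0.59 for sinusoidal endothelium, 0.57 for stellate cells, 0.39 for B cells and 0.04 for dendritic cells, and from -0.09 to 0.33 for the 4 other lists. The log2 fold changes of the 11 markers after Con A + PBS ran from -4.90 to -1.46, the latter being Marco, whose 95% interval from -2.47 to -0.45 overlaps that of H2-Aa, and their part in the class II values was not tested.

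Dendritic cell markers were lower too. Xcr1 and Clec9a, receptors of cross-presenting dendritic cells, fell by 0.75 and 0.70 on the log2 scale (limma adjusted p = 0.00290 and 0.00439), and Zbtb46, a factor of dendritic cells, was at -0.43 ± 0.19 (adjusted p = 0.0713). Their summed score ranged from 399 to 512 in control mice, 241 to 328 in Con A + PBS mice and 271 to 404 in Con A + hWJ-MSCs mice. Xcr1 had 106, 98, 126 and 86 in control mice and 62, 52, 78 and 54 after Con A + PBS. The groups did not overlap, as in 23.4% of all genes in this direction. Among Con A + PBS mice Xcr1 was highest in replicate 3, where 5 of 6 class II genes were at their lowest. In Con A + hWJ-MSCs mice Clec9a had 160, 218, 174 and 116 and Zbtb46 had 86, 108, 104 and 71. Both were thus highest in replicate 2 and lowest in replicate 4, as were the class II genes. The part of dendritic cells in the class II values was not tested.

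Of the B cell markers, Ighm, the IgM heavy chain, was called lower at -0.92 (limma adjusted p = 0.0478), and Bank1, a B cell scaffold protein, fell by 0.76 (adjusted p = 0.00129). The call of Ighm was lost in 9 of 12 omissions of 1 mouse, with adjusted p up to 0.134, and with only the 8 mice compared (adjusted p = 0.0602). Cr2, a complement receptor of B cells, was at -1.96 ± 0.97 (adjusted p = 0.103) and was listed at 0 in Con A + PBS replicate 1. It was called, at -2.54 (adjusted p = 0.0499), without Con A + PBS replicate 3. The summed score of the 3 ranged from 310 to 562 in control mice, 172 to 345 in Con A + PBS mice and 243 to 419 in Con A + hWJ-MSCs mice. Of 9 sinusoidal endothelial markers 6 fell and 1 rose, with Clec4g, an endothelial lectin, at -6.07 ± 0.45 (adjusted p = 8.64e-07) and Mrc1, the mannose receptor CD206, at -2.59 ± 0.28 (adjusted p = 1.20e-05). The endothelial sum ranged from 3668 to 5181 in control mice, 1732 to 2432 in Con A + PBS mice and 2068 to 2814 in Con A + hWJ-MSCs mice. Between hWJ-MSCs and PBS 1 of the 9 was called higher, the scavenger receptor gene Stab2 at 0.59 ± 0.11 (adjusted p = 0.0199), and 2 lower, the hyaluronan receptor gene Lyve1 at -0.90 ± 0.19 (adjusted p = 0.0224) and the cadherin gene Cdh5 at -0.66 ± 0.19 (adjusted p = 0.0443). Leaving out 1 mouse at a time lost the call of Stab2 in 4 of 12 omissions, that of Lyve1 in 3 and that of Cdh5 in 9, and Stab2 was also below the minimum fold change with a pseudocount of 10.

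Monocyte markers moved the other way. In this list 6 of 8 genes rose and 1 fell, with the lipopolysaccharide coreceptor Cd14 at 6.37 ± 0.24 (limma adjusted p = 4.90e-09) and Ly6c2, a surface protein of inflammatory monocytes, at 4.62 ± 0.55 (adjusted p = 2.66e-05). The summed score ranged from 1163 to 1554 in control mice, 6614 to 7937 in Con A + PBS mice and 2919 to 5201 in Con A + hWJ-MSCs mice. With hWJ-MSCs against PBS 1 of the 8 was called, Cd14 at -1.33 ± 0.24 (adjusted p = 0.0188), and the call was lost without Con A + PBS replicate 1 (adjusted p = 0.0696) or Con A + hWJ-MSCs replicate 3 (adjusted p = 0.0557). All 6 neutrophil markers in the table rose, with S100a8 at 5.06 ± 0.70 (adjusted p = 7.64e-05) and the collagenase gene Mmp8 at 4.94 ± 0.69 (adjusted p = 8.83e-05). So did 3 of 4 cytotoxic cell genes, with the granzyme genes Gzmb at 5.32 ± 0.26 (adjusted p = 4.86e-08) and Gzma at 3.96 ± 0.39 (adjusted p = 6.71e-06). Cd14, Ly6c2, S100a8, Mmp8, Gzmb and Gzma were below 64 in every control mouse. They were thus in the table only through mice given Con A, and the counts of genes that rose include such genes. The part of monocytes, neutrophils or cytotoxic cells in the class II values was not tested.

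The cells that carry little class II were checked with the same lists. Of 10 hepatocyte genes 6 fell, against 19.2% of all genes, among them Ass1, a urea cycle enzyme, at -2.44 ± 0.35 (limma adjusted p = 0.000102). Alb and Cps1 each had the same score in every mouse, 341028 and 147960, so they could not be called. The within-group correlation of this list thus rested on the other genes. Serpina1c, an antitrypsin gene, stood at the largest score in all 4 control mice, so its size of change cannot be given, and had scores from 34419 to 58210 after Con A + PBS. Apoe also stood at the largest score in all 4 control mice. Of 8 stellate cell genes 3 fell, against 19.2% of all genes, among them Reln at -2.60 ± 0.21 (adjusted p = 1.54e-06) and the retinol esterifying enzyme gene Lrat at -2.24 ± 0.21 (adjusted p = 4.29e-06). The other 5 were not called, and 2 of the 8, Dcn and Col1a1, were above 0. The summed score of this list ranged from 4576 to 7366 in control mice and from 5548 to 6359 in Con A + PBS mice. Of 3 cholangiocyte genes 1 rose, the transcription factor gene Sox9 at 1.83 ± 0.27 (adjusted p = 0.000126), and osteopontin (Spp1) was at 0.86 ± 0.50 (adjusted p = 0.162), but was called at 1.31 (adjusted p = 0.0264) without Con A + PBS replicate 3.

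Part of the route by which interferon-γ reaches Ciita was higher after Con A. Of 11 genes of this list in the table, 5 rose and 1 fell, against 19.5% and 19.2% of all genes, and the median log2 fold change was 0.41, against 0.045 for all genes. Ifng, the gene of interferon-γ itself, was not analysed here. Irf1, an interferon-induced factor that acts at Ciita, had 560, 566, 645 and 592 in control mice and 2160, 1268, 1312 and 2284 after Con A + PBS, all of the latter above the former. Its log2 fold change was 1.52 ± 0.20 (SE, n = 4 per group, limma adjusted p = 4.88e-05). Ifngr1 and Ifngr2, the chains of the interferon-γ receptor, rose by 0.73 ± 0.15 (adjusted p = 0.00129) and 0.81 ± 0.19 (adjusted p = 0.00353), and Irf8, a factor of myeloid cells, by 2.01 ± 0.25 (adjusted p = 4.04e-05).

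Socs1, an inhibitor of this signal, showed the largest change of the list. Being below 64 in every control mouse, it was in the table only through mice given Con A. It had 7, 19, 13 and 10 in control mice, 669, 396, 471 and 735 after Con A + PBS and 272, 149, 165 and 249 after Con A + hWJ-MSCs, with no overlap between groups. It rose by 5.46 ± 0.30 on the log2 scale after Con A + PBS (limma adjusted p = 1.02e-07) and was 1.44 ± 0.30 lower with hWJ-MSCs than with PBS (adjusted p = 0.0224). Socs1 was the single gene of the list called in that second comparison, and the call was lost without Con A + PBS replicate 1 (adjusted p = 0.0744), Con A + hWJ-MSCs replicate 2 (adjusted p = 0.0733) or replicate 3 (adjusted p = 0.0646). Usf2, an E-box factor, fell by 0.72 ± 0.13 (adjusted p = 0.000537) after Con A + PBS.

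For the factors that assemble on class II promoters, all 10 listed genes were in the table and 0 were called by limma after Con A + PBS. An unadjusted p below 0.05 was reached by 3 of the 10, each below the minimum fold change. Kat2b, a histone acetyltransferase, was at -0.52 ± 0.16 (adjusted p = 0.0167), and at -0.64 it was called without control replicate 1. Nfya and Nfyc, subunits of the Y box factor NF-Y, were at 0.43 ± 0.18 (adjusted p = 0.0622) and -0.30 ± 0.14 (adjusted p = 0.0840). Rfxap, a subunit of the X box complex, was at -0.25 ± 0.17 (adjusted p = 0.228), and the coactivator Crebbp at -0.30 ± 0.14 (adjusted p = 0.0727). The list had a median of -0.02 and spread from -0.52 to 0.43. In Con A + hWJ-MSCs mice against control 1 of the 10 was called, Crebbp at -0.63 ± 0.14 (adjusted p = 0.00303), and without Con A + hWJ-MSCs replicate 3 it was at -0.54, under the minimum fold change.

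Class I presentation, the pathway that shows peptides to CD8+ T cells, rose. After Con A + PBS 18 of 20 listed genes were called higher and 0 lower, against 19.5% and 19.2% of all genes. The median log2 fold change of the list was 1.05, against 0.045 for all genes. Tap1 and Tap2, the peptide transporter, rose by 2.67 ± 0.14 (limma adjusted p = 8.68e-08) and 2.09 ± 0.21 (adjusted p = 6.50e-06). Psmb8, an immunoproteasome subunit, rose by 2.2 ± 0.25 (adjusted p = 1.89e-05), and the loading factors Tapbp and Pdia3 by 1.80 ± 0.17 (adjusted p = 4.54e-06) and 1.93 ± 0.22 (adjusted p = 2.30e-05). H2-K1, a class I heavy chain, was an exception at -0.43 ± 0.13 (adjusted p = 0.0167), below the minimum fold change. With hWJ-MSCs against PBS, 1 of the 20 was called, H2-Q4, which was 0.60 ± 0.17 lower (adjusted p = 0.0451). That call was lost in 9 of 12 omissions of 1 mouse, with adjusted p up to 0.109, and with only the 8 mice compared (adjusted p = 0.065).

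**Figure D3:**
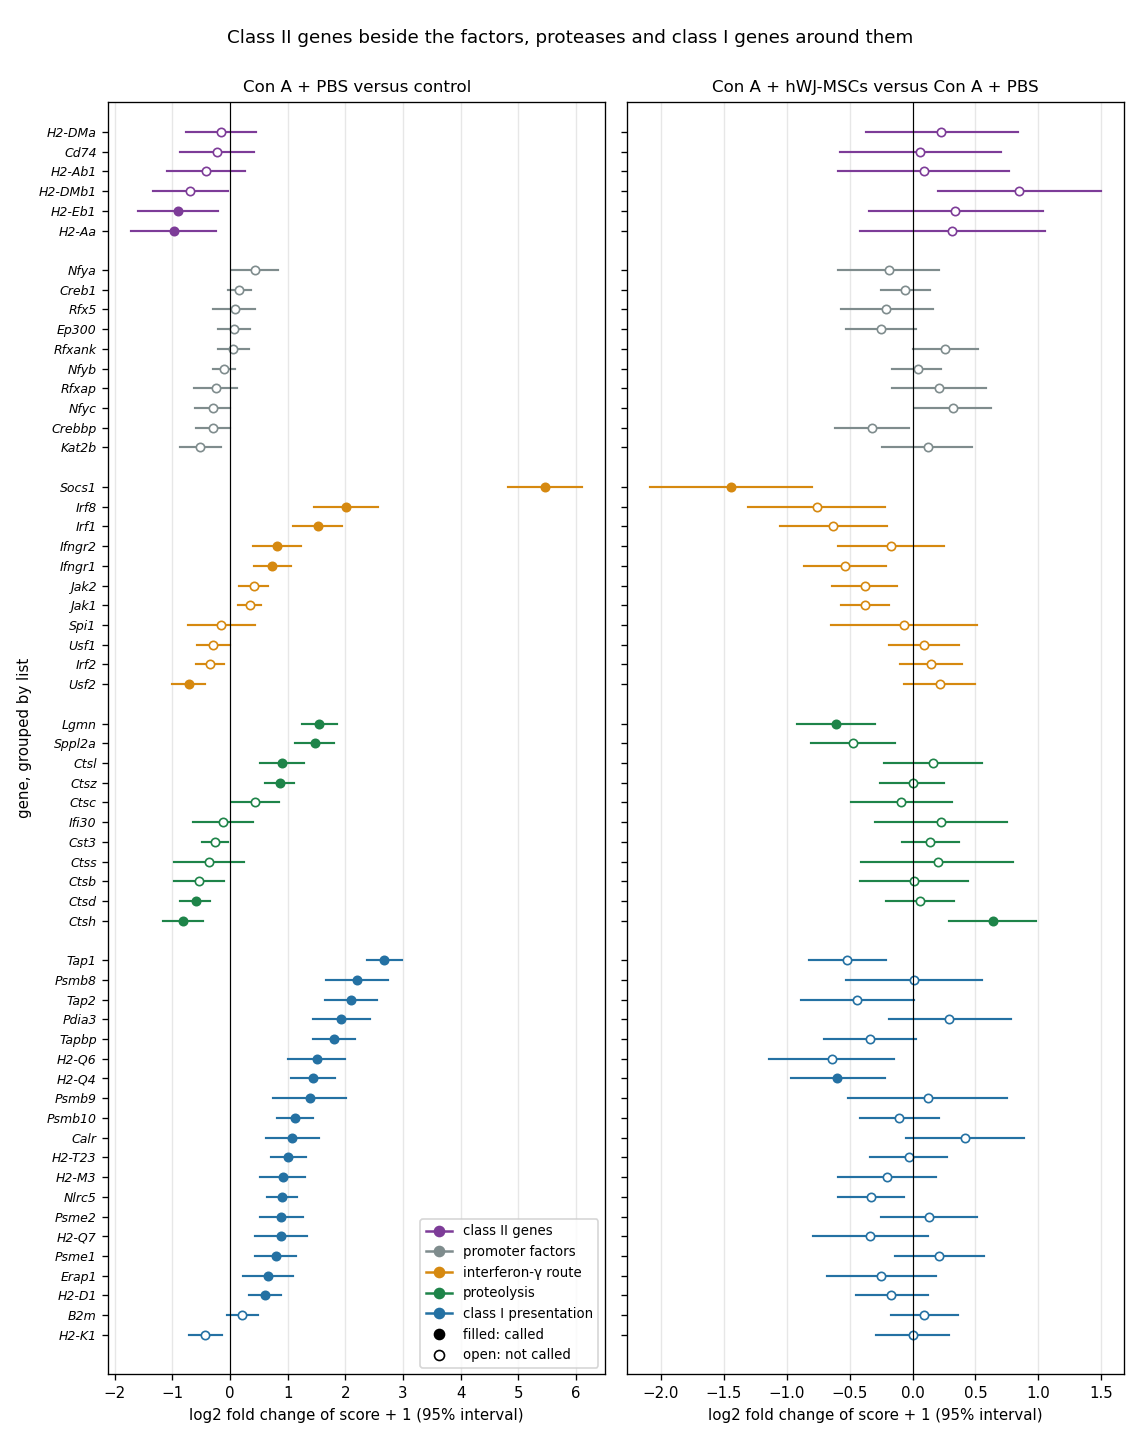
Log2 fold change of score + 1 (horizontal axes, whose scales differ between panels) with its 95% interval for the 6 class II genes and the genes of 4 lists (vertical axis), after Con A + PBS against control (left) and after Con A + hWJ-MSCs against Con A + PBS (right). Filled points are called and open points are not. On the left 18 of 20 class I genes are called higher while the class II genes lie at or below 0, and on the right no class II gene is called.

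Several class I genes that rose lie among the class II genes on the chromosome. The 5 MHC-linked members spanned 181 kb of chr17:34135182-34316199, and the table held 4 other genes in this span, Psmb9, Tap1, Psmb8 and Tap2. All 4 were called higher after Con A + PBS, with log2 fold changes of 1.38, 2.67, 2.2 and 2.09. Their start sites lay between those of H2-DMb1 and H2-Ab1. The annotated spans of Psmb9 and Tap1 overlap, so reads from the overlap cannot be assigned to either gene without strand.

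**Figure D4:**
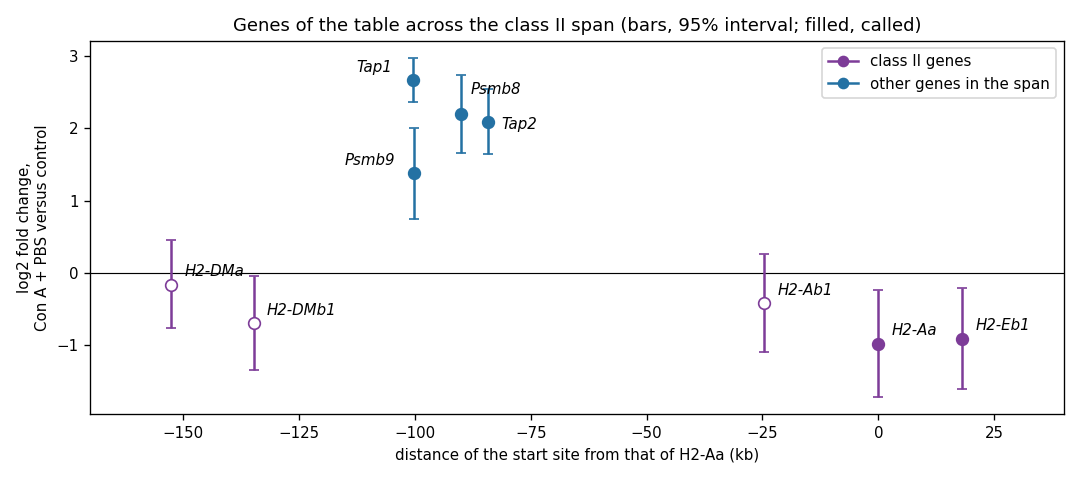
Log2 fold change after Con A + PBS against control (vertical axis, bars are 95% intervals) of the 9 measured genes in the span of the MHC-linked class II members, by the distance of their start sites from that of H2-Aa (horizontal axis, kb). The 4 genes in blue, Psmb9, Tap1, Psmb8 and Tap2, lie above 0 between class II genes in purple that lie below 0.

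Among 11 enzymes and other proteins that act on Cd74 and antigens in the endosome, 4 rose and 2 fell after Con A + PBS. For comparison, 19.5% of all genes were called higher and 19.2% lower. Lgmn, an asparagine endopeptidase, rose by 1.55 ± 0.14 (limma adjusted p = 4.11e-06) and Sppl2a, the intramembrane protease that clears the last stub of Cd74, rose by 1.47 ± 0.16 (adjusted p = 1.20e-05). Ctsl and Ctsz, which encode cathepsins, rose by 0.90 ± 0.18 (adjusted p = 0.00108) and 0.86 ± 0.12 (adjusted p = 7.18e-05). Ctsh, another cathepsin gene, fell by 0.81 ± 0.16 (adjusted p = 0.000964). With hWJ-MSCs against PBS, Ctsh was 0.64 ± 0.16 higher (adjusted p = 0.0302) and Lgmn 0.61 ± 0.14 lower (adjusted p = 0.0265), and the other 9 were not called. Both calls were lost without Con A + PBS replicate 1 or 4 or Con A + hWJ-MSCs replicate 2 or 3, with adjusted p from 0.0567 to 0.0897. That of Ctsh was also lost without Con A + hWJ-MSCs replicate 1 (adjusted p = 0.052), and that of Lgmn without replicate 4, where it was at -0.56, under the minimum fold change.

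Cd74 is also a surface receptor for the cytokine Mif. Of 4 genes of this list in the table, Mif rose by 1.33 ± 0.13 (limma adjusted p = 6.54e-06) after Con A + PBS, and Cxcr2, a chemokine receptor that also binds Mif and marks neutrophils, rose by 2.71 ± 0.31 (adjusted p = 2.16e-05). Its homolog Ddt was at -0.06 ± 0.10 (adjusted p = 0.618), and the coreceptor Cd44 at 0.40 ± 0.18 (adjusted p = 0.0726). None of the 4 was called between hWJ-MSCs and PBS, where the log2 fold changes ran from -0.52 to 0.08.

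On the costimulatory side 1 of 8 genes was in the table, Cd274, which encodes the inhibitory ligand PD-L1. It had 52, 92, 40 and 70 in control mice, 940, 594, 715 and 1096 after Con A + PBS, and 506, 266, 370 and 203 after Con A + hWJ-MSCs. The 3 groups did not overlap. It rose by 3.73 ± 0.31 after Con A + PBS (limma adjusted p = 1.87e-06) and was 1.36 ± 0.31 lower with hWJ-MSCs than with PBS (adjusted p = 0.0253). The latter call was lost without Con A + PBS replicate 1 or 4 or Con A + hWJ-MSCs replicate 2 or 3, with adjusted p from 0.0551 to 0.0778. Of 18 T cell genes 3 were in the table. The costimulatory receptor Cd28 and the kinase Lck rose by 4.75 ± 0.59 (adjusted p = 3.82e-05) and 2.67 ± 0.26 (adjusted p = 6.12e-06), and the kinase Zap70 fell by 0.95 ± 0.29 (adjusted p = 0.0145). Cd28 and Lck were below 64 in every control mouse and so were in the table only through mice given Con A. No gene of the lists of other class II chains (6 genes) and of ubiquitin ligase turnover (5 names) was in the table.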

How the data were processed

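Poly-A RNA of 12 livers, 1 per mouse, was sequenced as 150 bp paired-end reads, and the submitters' processing notes name Bowtie2 2.2.1, RSEM 1.2.18 and mm10. The authors deposited whole-number scores already normalized between mice, by a step not given in the sources used here. The 12 sorted columns differed by at most 1 at 86.9% of ranks, and totals differed by 0.0425%, so the scores were not treated as counts and library depth and counting error are unknown.

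Groups came from the labels, and 0 columns of per-sample values were left unused. All 11289 genes were fitted in 1 limma model (limma 3.58.1, R 4.3.3) of log2(score + 1) over the 3 groups with a variance trend, in place of the count test the study names. The fit was tested on simulated data. Single members were also compared by exact two-sided permutation of 4 against 4 (scipy 1.17.1), where 0.029 is the smallest p. The ratios between members were added after their values were seen. RefSeq windows were matched by symbol and GENCODE lengths by transcript.

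The members and gene lists were chosen with earlier results of these data known, and some listed genes are not reported here. Named in the text were every member, up to 5 genes of each pathway list and 2 of each cell marker list with the largest change after Con A + PBS, and the genes most alike the members. Further genes of the lists (H2-K1, H2-Q4, Psmb9, Usf2, Zbtb46, Bank1, Stab2, Lyve1, Cdh5, Alb, Cps1, Apoe, Dcn and Col1a1) were named after their values were seen. Alternatives comprised another pseudocount, a filter, scalings, other fits and call rules, and each mouse left out.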

Additional observations from a re-analysis of the deposited data

How the results depend on the processing

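With all mice kept, no alternative changed the direction of any class II member in any comparison. Another pseudocount, scaling or variance model, or a fit of only the 8 mice compared, also left the calls of H2-Aa and H2-Eb1 after Con A + PBS in place, with log2 fold changes from -0.98 to -0.96 and from -0.91 to -0.89. Leaving out 1 mouse at a time gave 0 to 3 called members after Con A + PBS. The 4 omissions that left 0 calls were control replicates 2 and 4 and Con A + PBS replicates 1 and 3, and 3 members were called without Con A + PBS replicate 4. Between hWJ-MSCs and PBS the number of called members was 1 at an unadjusted p below 0.05, and between hWJ-MSCs and control it was 0 to 2 with 1 mouse left out. Called genes of the other lists between hWJ-MSCs and PBS, 9 in all, numbered 0 to 16 with 1 mouse left out and 20 at an unadjusted p. Directions that turned with 1 mouse left out belonged to members that were not called, whose log2 fold changes then ran from -0.39 to 0.03 for H2-DMa after Con A + PBS, from -0.11 to 0.36 for H2-Ab1 and from -0.13 to 0.33 for Cd74 between hWJ-MSCs and PBS, and from -0.15 to 0.28 for H2-DMa, -0.04 to 0.38 for H2-DMb1 and -0.36 to 0.10 for Cd74 between hWJ-MSCs and control. The cause was not tested.

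Each replicate number belongs to different animals in the 3 groups. Same-numbered mice of different groups had correlations of their deviations from -0.12 to 0.38 over all genes, and differently numbered mice from -0.385 to 0.141. The highest value was between replicate 2 of Con A + PBS and of Con A + hWJ-MSCs. Whether a replicate number marks a shared batch was not tested. The fit with the replicate number as a block called 3 members after Con A + PBS, adding H2-DMb1 (adjusted p = 0.0474), 0 members in the other comparisons and 16 list genes between hWJ-MSCs and PBS. A filter on a mean score of at least 100 removed H2-DMa and H2-DMb1. DESeq2 was not run because the scores are not counts. Without known depth, no counting interval could be given for the low scores of H2-DMa and H2-DMb1.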
